A study of Saccharomyces cerevisiae with 21 samples.

Results

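The transcriptome of wine-fermenting Saccharomyces cerevisiae at 120 h, when the ferment held about 7% ethanol, was compared with that at 24 h, when it held about 0.5%. Each time was covered by 3 arrays, so 6 of the 21 arrays of the series were compared, across 5656 genes. The study followed a wine fermentation at 1, 12, 24, 48, 60, 120 and 340 h, with 3 arrays per time that the series text calls biological replicates. Total RNA of harvested cells was hybridised to Affymetrix yeast arrays, and the deposited values are log2 expression values after RMA, a method that scales all arrays to 1 distribution. The groups differed in time since inoculation and with it in ethanol, so time, ethanol and everything else that changed in the medium cannot be told apart. Strain, genotype, must and temperature are not given in the sources used here, and no group carried a labelled treatment or mutation.

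In wine fermentation yeast first takes up hexoses and divides, then stops dividing while it goes on turning sugar into ethanol as nitrogen and other nutrients run down. Glucose and preferred nitrogen sources repress the genes for respiration, for other carbon sources and for poorer nitrogen sources, and the protein kinases PKA and TOR keep ribosome production high and the Msn2/Msn4 stress genes low. Ethanol itself disturbs membranes and proteins, and cells meet it with chaperones, sterols and proton pumps.

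Changes below are log2 differences of the 120 h mean minus the 24 h mean with their standard error from the limma fit, n = 3 arrays per time, and a gene passed at a Benjamini-Hochberg adjusted p under 0.05 over all 5656 genes. Adjusted p-values are those of limma. Bulk RNA cannot tell fewer cells that express a gene from less of its RNA per cell. The number of arrays limits the precision: over all genes the standard error of a difference had a median of 0.20. The array of 24 h replicate 3 stood somewhat apart, with a correlation across genes of 0.956 and 0.964 with the other 24 h arrays, which correlated at 0.992 with each other. Its 4 mouse control probe sets averaged 5.09, against 3.43 to 4.13 on the other 20 arrays. The 3' minus 5' signal of control probe sets is a measure of RNA integrity. For SRB4 it was 2.03 on this array, against 1.02 to 1.95 on the other 20. For ACT1 it was 2.02, against 1.03 and 1.25 on the other 24 h arrays. For SPT15 it was 1.97, below the 2.08 and 2.29 of those arrays. Replicate 3 of both times had brighter 18S rRNA controls, 9.33 at 24 h and 9.61 at 120 h against 6.36 to 7.16 on the other 4 arrays. An exact permutation test of the group means gave a two-sided p of 0.5. The smallest p it can give is 0.1, so it could not show a difference at 0.05. The pheromone receptor genes STE2 and STE3, which mark the a and α haploid cell types, lay low at both times, STE2 at 3.21 ± 0.18 and 3.57 ± 0.02 (SD, n = 3) and STE3 at 4.19 ± 0.27 and 4.41 ± 0.21. The rise of STE2 passed (adjusted p = 0.0494) but was lost without most single arrays, and STE3 gave an adjusted p of 0.334.

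Changes by 120 h were widespread, in equal numbers up and down. Of the 5656 genes, 3008 (53.2%) passed the test, 1504 (26.6%) higher and 1504 (26.6%) lower at 120 h. At least 2-fold changes that passed numbered 774 rises (13.7%) and 703 falls (12.4%), at least 4-fold ones 187 and 134, and at least 8-fold ones 42 and 29. On reference genes, as described next, the at least 2-fold ones were 1339 rises and 357 falls. The 3 values of one time all lay above the 3 of the other for 3193 genes (56.5%), of which 2814 passed. Without 24 h replicate 3 the number of genes that passed was 2933. The split depends on the scaling: with each array centred on 5 reference genes, 3426 genes passed, 2643 (46.7%) higher and 783 (13.8%) lower, since the median change of all genes moved up by 0.43 from 0.01. Among those 5 genes, TAF10 (-1.06 ± 0.22, adjusted p = 6.24e-04) and TRS65 (-1.15 ± 0.21, adjusted p = 1.73e-04) were themselves lower on the deposited scale, where the actin gene ACT1 differed by 0.01 ± 0.14 (adjusted p = 0.945). Of the genes named below, ALD5, ATG27, BIO2, BIO5, EPT1, FAA3, GPD1, ILV1, LPD1, MFA2, MRH1, MRPL32, OPT2, RAS2, RPN9, TKL1 and YPR1 passed as lower on the deposited scale and did not pass on reference genes, and ACT1, ADH1, GCN4, PDC1 and STE3 passed as higher on reference genes.

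At high levels falls outnumbered rises, and at low levels rises outnumbered falls on the deposited scale. Of the 188 genes with a mean over 11 at 24 h, 118 fell and 27 rose, with a median change of -0.86. Of the 942 genes under 5 at 24 h, 99 fell and 215 rose, and of the 2141 genes between 5 and 7, 438 fell and 634 rose. On reference genes 93 fell and 46 rose in the highest of these bands and 13 fell and 499 rose in the lowest. The group at 24 h sets both the band and the change, so this split is a description. The scatter of gene levels shows this asymmetry.

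**Figure D1:**
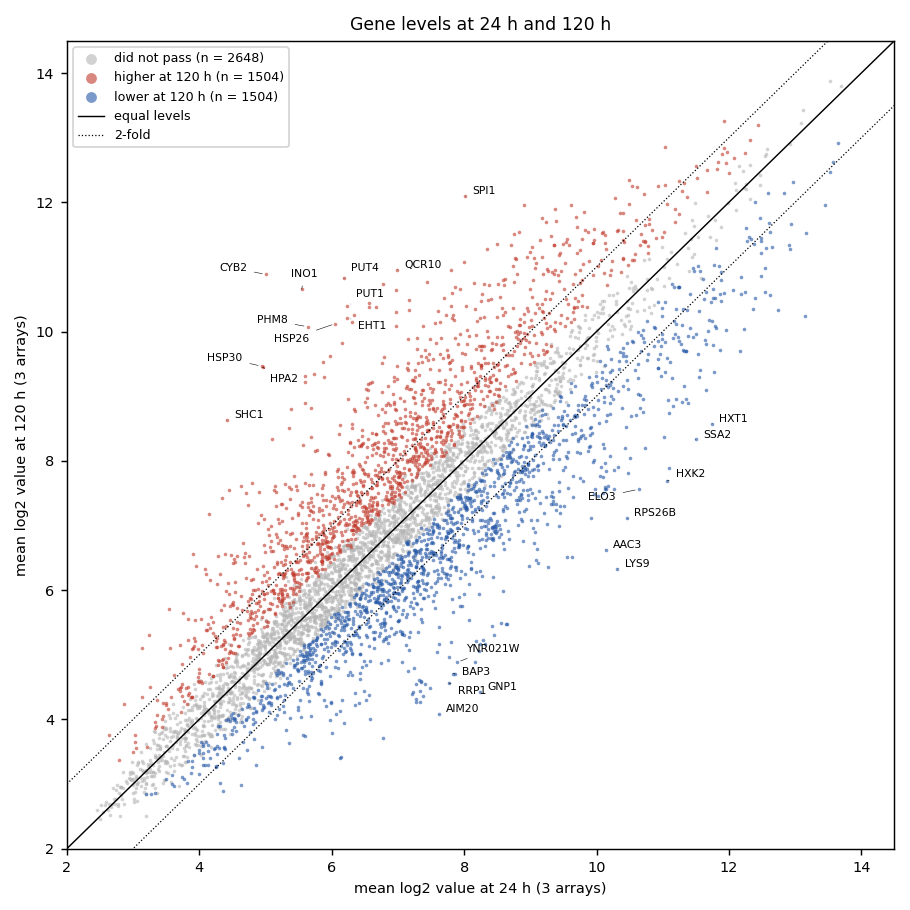
Mean log2 value of each of 5656 genes at 24 h (x axis) and at 120 h (y axis), 3 arrays each. Red points are the 1504 genes that rose, blue points the 1504 that fell and grey points those that did not pass, with the 24 genes of the largest changes named and dotted lines at 2-fold.

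Genes are described by lists of known function, and the counts are of the members measured. Each count is to be read beside the share of all genes, 26.6% higher and 26.6% lower. On reference genes that share was 46.7% higher and 13.8% lower. On reference genes the number of rises or of falls moved by over 1.5 times in 45 of 66 lists, towards more rises or fewer falls in each, and the counts on that scale stand in brackets beside these lists. A list median changed sign on reference genes in 9 lists and without 1 array in 9, all of them under 0.27 in size, so such medians are not read as directions. Without 24 h replicate 3, 33 of 35 respiratory genes, 35 of 41 Msn2/Msn4 genes and 20 of 29 nitrogen genes rose, and 78 of 80 ribosomal protein, 15 of 16 purine and 86 of 91 tRNA genes fell. Where no member of a list moved in one direction by limma, none did at an unadjusted p under 0.05, except 3 proteasome genes that were higher and 1 meiosis gene that was lower.

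The 12 largest rises were in CYB2, INO1, PUT4, HSP30, HPA2, PHM8, SHC1, PUT1, SPI1, HSP26, EHT1 and QCR10, from 58.9-fold to 15.6-fold. They were the largest among genes that passed, whose groups did not overlap and whose probe set is not of a shared type. CYB2, which encodes the mitochondrial L-lactate dehydrogenase, measured 5.80, 5.29 and 3.93 at 24 h and 11.28, 10.69 and 10.68 at 120 h. The rise was 5.88 ± 0.44 (adjusted p = 7.40e-09), and no 24 h array came near any 120 h array. INO1, inositol-3-phosphate synthase, the first step of inositol synthesis, measured 5.79, 5.75 and 5.10 at 24 h and 11.01, 10.52 and 10.43 at 120 h, a rise of 5.11 ± 0.26 (adjusted p = 2.76e-10). The proline permease gene PUT4 measured 6.43, 6.03 and 6.09 at 24 h and 11.08, 10.76 and 10.64 at 120 h and rose by 4.64 ± 0.34 (adjusted p = 4.90e-09). PUT1, the mitochondrial proline oxidase that starts proline breakdown, measured 6.39, 6.19 and 6.13 at 24 h and 10.52, 10.23 and 10.45 at 120 h and rose by 4.16 ± 0.24 (adjusted p = 6.71e-10). In both proline genes the groups were more than 3 log2 units apart at their nearest arrays.

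HSP30, a stress-induced plasma membrane protein that restrains the proton pump Pma1, measured 5.29, 4.69 and 4.84 at 24 h and 9.73, 8.87 and 9.79 at 120 h, and SPI1, a cell wall protein of stationary phase, measured 8.26, 7.78 and 8.02 at 24 h and 11.96, 11.91 and 12.41 at 120 h. They rose by 4.52 ± 0.24 (adjusted p = 2.76e-10) and 4.08 ± 0.22 (adjusted p = 2.76e-10). The small heat shock protein gene HSP26 measured 5.57, 5.97 and 6.62 at 24 h and 10.20, 9.98 and 10.19 at 120 h and rose by 4.07 ± 0.25 (adjusted p = 1.13e-09). EHT1, an acyltransferase that forms the ethyl esters of medium-chain fatty acids found in wine, measured 5.97, 6.17 and 6.56 at 24 h and 10.11, 10.04 and 10.49 at 120 h, so that all 120 h arrays exceeded all 24 h arrays by more than 3 log2 units. QCR10, a subunit of the cytochrome bc1 complex, measured 7.07, 7.18 and 6.72 at 24 h and 10.90, 10.71 and 11.27 at 120 h and had the smallest standard error of these 12 rises, 3.96 ± 0.17. The remaining members were HPA2, a histone acetyltransferase (4.49 ± 0.33), PHM8, a phosphatase of the phosphate starvation response (4.44 ± 0.25), and SHC1, an activator of chitin synthesis (4.21 ± 0.28). In SHC1 and CYB2, 24 h replicate 3 was more than 1 log2 unit below the other 24 h arrays, and both rises passed without it.

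The 12 largest falls were in LYS9, GNP1, AIM20, AAC3, HXK2, RPS26B, RRP1, HXT1, SSA2, BAP3, ELO3 and YNR021W. They were chosen by the same rule as the rises, which takes only genes whose groups did not overlap. LYS9, saccharopine dehydrogenase of lysine synthesis, measured 9.91, 10.21 and 10.83 at 24 h and 6.53, 5.85 and 6.62 at 120 h and fell by 3.98 ± 0.23 (adjusted p = 7.38e-10). GNP1, a permease for glutamine and other amino acids, measured 8.09, 8.48 and 8.16 at 24 h and 4.36, 4.54 and 4.36 at 120 h and fell by 3.82 ± 0.17 (adjusted p = 7.53e-11), and the branched-chain permease gene BAP3 measured 8.39, 8.0 and 7.12 at 24 h and 4.76, 4.72 and 4.64 at 120 h. AAC3, the ADP/ATP carrier made under low oxygen, measured 10.12, 10.01 and 10.28 at 24 h and 6.74, 6.58 and 6.54 at 120 h, and the groups were separated by more than 3 log2 units. HXK2, the main hexokinase of cells growing on glucose, measured 11.08, 11.40 and 10.72 at 24 h and 7.65, 7.84 and 7.58 at 120 h and fell by 3.38 ± 0.20 (adjusted p = 9.70e-10). HXT1, the low-affinity glucose transporter of high glucose, measured 11.65, 11.81 and 11.78 at 24 h and 8.09, 8.58 and 9.05 at 120 h. It fell by 3.17 ± 0.25 (adjusted p = 1.24e-08), and its 120 h arrays were spread over about 1 log2 unit.

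SSA2, a constitutive cytosolic Hsp70 chaperone, measured 11.39, 11.36 and 11.74 at 24 h and 8.15, 8.15 and 8.69 at 120 h and fell by 3.16 ± 0.21 (adjusted p = 2.41e-09). ELO3, which elongates fatty acids to the very long chains of sphingolipids, measured 10.68, 10.68 and 10.55 at 24 h and 7.69, 7.71 and 7.28 at 120 h and fell by 3.08 ± 0.19 (adjusted p = 1.13e-09). Both stood in the upper range of the array at 24 h. RRP1, a ribosome assembly factor, fell by 3.20 ± 0.35 (adjusted p = 5.20e-07), and its 120 h arrays spread from 3.68 to 5.24. RPS26B, a small ribosomal subunit protein, fell by 3.35 ± 0.24, and the less characterised genes AIM20 and YNR021W fell, with changes of -3.54 ± 0.17 and -3.01 ± 0.17. The dot plot of these 24 genes gives every array.

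**Figure D2:**
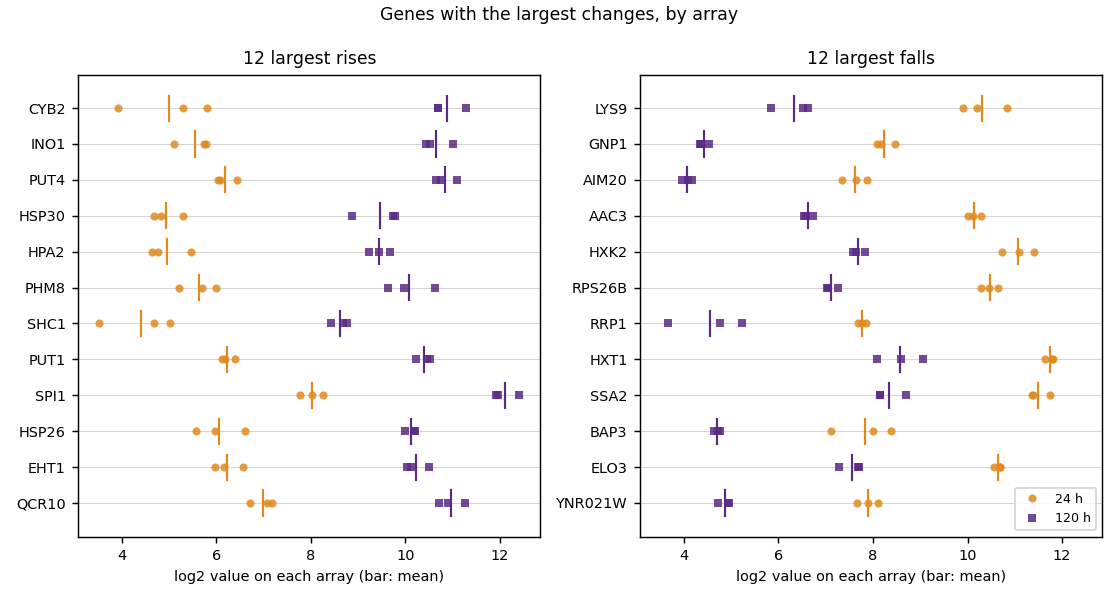
Log2 value on each of the 6 arrays for the 12 largest rises (left) and the 12 largest falls (right). Circles are the 24 h arrays, squares the 120 h arrays and bars the mean of 3. In all 24 genes the arrays of both times are separate, which the rule that chose them required.

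Of 16 measured hexose transporter and sensor genes, 7 rose and 2 fell (11 rises and 1 fall on reference genes). Beside the fall of HXT1, the high-affinity transporter genes HXT6 and HXT7 rose by 2.53 ± 0.28 (adjusted p = 6.22e-07) and 1.91 ± 0.28. Their probe sets are of a shared type, so these rises may not be separate measurements. RGT1, the repressor of HXT genes in low glucose, rose by 2.72 ± 0.22 (adjusted p = 1.34e-08). Of 16 glycolytic genes, 2 rose, 4 fell and 10 did not pass (7 rises and 3 falls on reference genes). HXK2, the enolase gene ENO2 (-1.57 ± 0.27) and the glyceraldehyde-3-phosphate dehydrogenase gene TDH3 (-0.94 ± 0.15) fell, the latter pair on shared probe sets, while the glucokinase gene GLK1 rose by 1.14 ± 0.18 (adjusted p = 4.55e-05).

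The main genes of alcohol formation stayed high. PDC1, pyruvate decarboxylase, measured 12.21 ± 0.15 (SD, n = 3) at 24 h and 12.48 ± 0.16 at 120 h (adjusted p = 0.199). ADH1, the fermentative alcohol dehydrogenase, measured 12.55 ± 0.04 and 12.74 ± 0.18 (adjusted p = 0.281), and the glucose-repressed ADH2, which oxidises ethanol, 6.93 ± 0.37 and 6.74 ± 0.10 (adjusted p = 0.412). Of 13 members of the decarboxylase and alcohol dehydrogenase list, 5 rose and 3 fell (8 rises and 1 fall on reference genes). BDH2, a putative butanediol dehydrogenase, rose by 3.10 ± 0.29 (adjusted p = 9.18e-08), the NADPH-dependent ADH6 by 1.51 ± 0.17 and the minor decarboxylase gene PDC6 by 1.22 ± 0.25, and the zinc-regulated ADH4 fell by 1.50 ± 0.23. Of 7 aldehyde dehydrogenase and acetyl-CoA synthetase genes, 4 rose and 1 fell (5 rises and no fall on reference genes). The synthetase genes ACS1 and ACS2 rose by 2.21 ± 0.16 and 1.45 ± 0.23 and the stress-induced ALD3 by 1.49 ± 0.22, while the mitochondrial ALD5 fell by 0.92 ± 0.24. In glycerol synthesis GPD1 and GPP1, for its 2 successive steps, fell, with changes of -0.83 ± 0.19 (adjusted p = 0.00138) and -1.19 ± 0.21 (adjusted p = 1.27e-04). In all, 1 of 11 glycerol genes rose and 3 fell (6 rises and 1 fall on reference genes).

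Genes of respiration and of growth on other carbon sources rose together. Of 35 subunits of the respiratory chain and ATP synthase, 33 rose and none fell. Their median change was 1.84, against 26.6% higher and a median of 0.01 over all genes. Beside QCR10, these included INH1, the inhibitor of ATP hydrolysis (3.41 ± 0.26, adjusted p = 1.02e-08), CYC1, the aerobic cytochrome c (3.16 ± 0.32), and COX5A, the aerobic form of a cytochrome oxidase subunit (3.15 ± 0.22). COX5A measured 8.18, 7.71 and 7.53 at 24 h and 10.80, 10.88 and 11.18 at 120 h, with no overlap. HAP4, the regulatory subunit of the activator of respiratory genes, rose by 1.97 ± 0.31 (adjusted p = 3.50e-05). Of 16 tricarboxylic acid cycle genes 9 rose and 1 fell (12 rises and no fall on reference genes). SDH4 and SDH2, subunits of succinate dehydrogenase, rose by 2.10 ± 0.19 and 1.62 ± 0.27 and KGD1, of 2-oxoglutarate dehydrogenase, by 1.41 ± 0.19. LPD1, the lipoamide dehydrogenase that this complex shares with pyruvate dehydrogenase, fell by 0.52 ± 0.17 (adjusted p = 0.0167), a call lost without 120 h replicate 1 or 2.

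Of 12 gluconeogenic and glyoxylate cycle genes 10 rose and none fell, with a median change of 1.03. FBP1, fructose-1,6-bisphosphatase, measured 5.93, 5.50 and 6.43 at 24 h and 8.09, 7.95 and 8.23 at 120 h and rose by 2.14 ± 0.25 (adjusted p = 1.06e-06). The cytosolic isocitrate dehydrogenase gene IDP2 rose by 1.91 ± 0.20, the lactate and pyruvate permease gene JEN1 by 1.39 ± 0.19 and the malate synthase gene MLS1 by 1.27 ± 0.18. Of 15 hypoxic genes 4 rose and 5 fell (7 rises and 4 falls on reference genes). AAC3 and ANB1, a form of the translation factor eIF5A made without oxygen, fell, with changes of -3.51 ± 0.19 and -1.87 ± 0.22. CYC7, the second cytochrome c gene, and ROX1, the repressor of hypoxic genes, rose by 2.61 ± 0.20 (adjusted p = 1.04e-08) and 1.74 ± 0.31. Among 14 haem synthesis and HAP genes 4 rose and 2 fell. HMX1, the haem oxygenase, changed by 1.53 ± 0.28 and HEM14, protoporphyrinogen oxidase, by -1.46 ± 0.19. Of 65 mitochondrial ribosomal protein genes 23 rose and 1 fell (51 rises and no fall on reference genes). MRPL44 and MRP1 rose by 1.84 ± 0.22 and 1.26 ± 0.18, and MRPL32 fell by 0.76 ± 0.21. Among 26 mitochondrial import genes 3 rose, such as the Hsp70 gene SSC1 (1.18 ± 0.22), and 3 fell, such as TIM12 (-1.27 ± 0.20) (10 rises and 1 fall on reference genes). Without 120 h replicate 3 the number that passed was 10.

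Stress genes, reserve carbohydrate genes and antioxidant genes were mostly higher. Of 41 Msn2/Msn4 stress genes 35 rose and none fell, with a median change of 1.39. Beside SPI1 and HSP26 these included the cytosolic catalase gene CTT1, which measured 7.87, 7.24 and 7.20 at 24 h and 10.58, 10.59 and 11.13 at 120 h and rose by 3.33 ± 0.24 (adjusted p = 4.33e-09), and the peroxidase gene GPX1 (2.63 ± 0.16). The change was small in some of the best known members. HSP12, a membrane-protecting small heat shock protein, measured 7.79, 8.0 and 8.16 at 24 h and 8.51, 8.46 and 8.62 at 120 h and rose by 0.55 ± 0.20 (adjusted p = 0.0254), a call lost without 24 h replicate 1 or 2 or 120 h replicate 3, and the disaggregase gene HSP104 rose by 0.64 ± 0.19 (adjusted p = 0.0102). Trehalose genes gave 7 rises and no fall among 9, with TPS1, the trehalose phosphate synthase, at 1.23 ± 0.22, its regulatory partner TSL1 at 2.45 ± 0.25, and the trehalases NTH2 and ATH1 at 1.97 ± 0.19 and 1.60 ± 0.20. Synthesis and breakdown genes of trehalose thus both rose. Glycogen genes gave 7 rises and no fall among 11. GAC1, the targeting subunit of the phosphatase that activates glycogen synthase, rose by 3.41 ± 0.21 (adjusted p = 1.06e-09), the branching enzyme gene GLC3 by 2.73 ± 0.24, the synthase gene GSY2 by 2.61 ± 0.20 and the debranching enzyme gene GDB1 by 2.31 ± 0.21.

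Of 28 cytosolic and mitochondrial chaperone genes 10 rose, 9 fell and 9 did not pass (15 rises and 3 falls on reference genes), near the share of all genes in each direction on the deposited scale. HSP26, the Hsp110 gene SSE2 (2.04 ± 0.18, adjusted p = 4.47e-08) and the mitochondrial disaggregase gene HSP78 (1.72 ± 0.22) rose, while SSA2 fell. Of 13 chaperones and folding enzymes of the endoplasmic reticulum 3 rose and 3 fell (6 rises and 2 falls on reference genes), near the share of all genes on both scales. ERO1, which forms disulfide bonds, changed by 1.49 ± 0.18 and EUG1, a disulfide isomerase, by -1.35 ± 0.21. Oxidative defence gave 18 rises and 5 falls among 31 (23 rises and 3 falls on reference genes). SOD2, the mitochondrial superoxide dismutase, measured 8.98, 8.66 and 8.47 at 24 h and 11.08, 11.34 and 11.57 at 120 h and rose by 2.63 ± 0.27 (adjusted p = 2.40e-07). GSH2, glutathione synthetase, fell by 1.63 ± 0.18 (adjusted p = 9.18e-07).

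**Figure D3:**
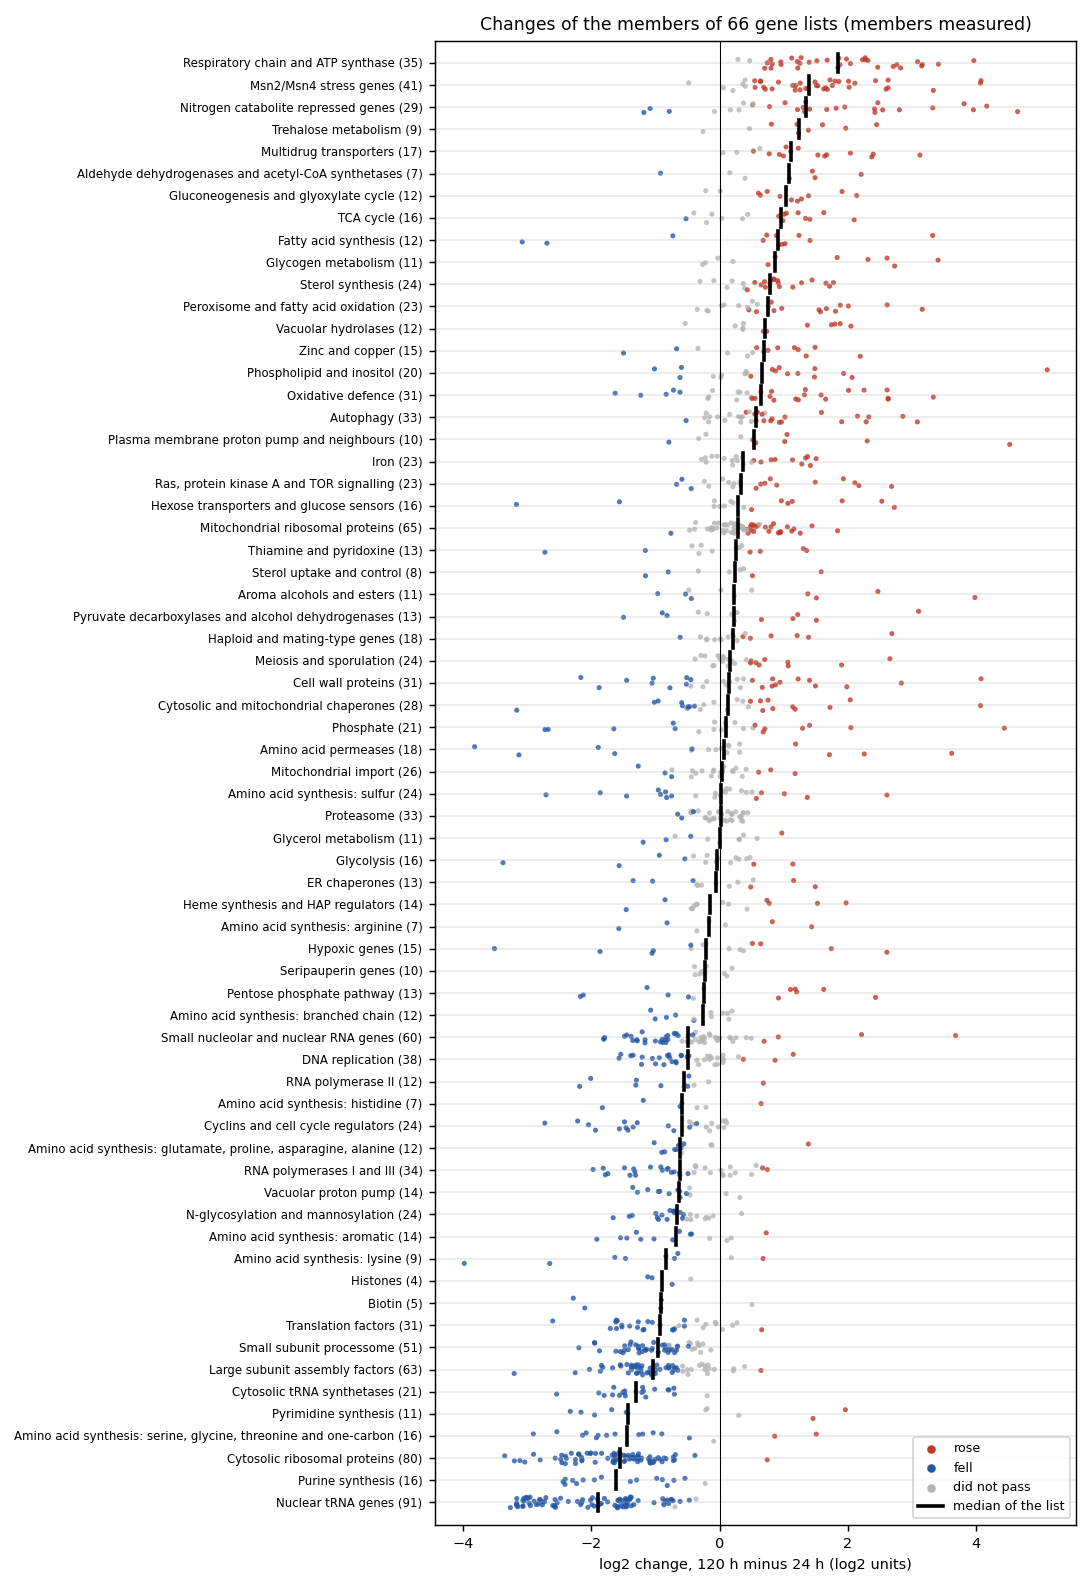
Change from 24 h to 120 h of each measured member of 66 gene lists, in log2 units, ordered by the list median (black bars), with the number measured in brackets. Red points rose, blue points fell and grey points did not pass. Respiratory chain genes lie at the top, with a median of 1.84, and nuclear tRNA genes at the bottom, with a median of -1.89.

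Genes for the use of poorer nitrogen sources mostly rose. Of 29 genes under nitrogen catabolite repression, 21 rose and 3 fell, with a median change of 1.34. Beside PUT4 and PUT1, the ammonium permease gene MEP2 measured 6.76, 6.84 and 6.73 at 24 h and 10.89, 10.39 and 10.92 at 120 h and rose by 3.96 ± 0.32 (adjusted p = 1.51e-08). GAP1, the general amino acid permease, measured 6.69, 6.70 and 6.30 at 24 h and 10.70, 10.12 and 10.31 at 120 h and rose by 3.81 ± 0.31 (adjusted p = 1.49e-08). In both genes all 120 h arrays exceeded all 24 h arrays by more than 3 log2 units. The arginase gene CAR1 rose by 1.21 ± 0.25. GAT1, a GATA activator of these genes and outside the rule that chose the named genes, rose by 3.32 ± 0.27. OPT2, an oligopeptide transporter, fell by 1.18 ± 0.32 (adjusted p = 0.00436). Among 18 amino acid permeases 4 rose and 5 fell (9 rises and 4 falls on reference genes). ALP1, for basic amino acids, rose by 3.62 ± 0.22 (adjusted p = 1.05e-09), and MUP3, for methionine at low affinity, by 2.26 ± 0.25, against the falls of GNP1 and BAP3.

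Genes of amino acid synthesis fell in several branches. In the serine, glycine, threonine and one-carbon list 13 of 16 genes fell and 2 rose, with a median change of -1.45. GCV1, of the glycine cleavage complex, measured 9.31, 9.42 and 9.08 at 24 h and 6.47, 6.34 and 6.27 at 120 h and fell by 2.91 ± 0.17 (adjusted p = 9.28e-10). SER33, for the first step of serine synthesis, fell by 2.14 ± 0.16. Of 9 lysine genes 7 fell and 1 rose (2 rises and 4 falls on reference genes), with LYS12 at -2.65 ± 0.15 and LYS21, the homocitrate synthase of the first step, at -1.64 ± 0.28, and LYS5, which activates the reductase Lys2, at 0.68 ± 0.18. Of 14 aromatic genes 10 fell and 1 rose (2 rises and 6 falls on reference genes), among them ARO4, for the first step of the shared pathway (-1.92 ± 0.21), and TRP4, of tryptophan synthesis (-1.55 ± 0.17), and the transaminase gene ARO9 (0.73 ± 0.16). Histidine genes gave 4 falls among 7, including HIS1, for the first step (-1.83 ± 0.22), and 1 rise, HIS2 (0.64 ± 0.15) (1 rise and 2 falls on reference genes).

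The glutamate, proline, asparagine and alanine list gave 8 falls and 1 rise, the glutamate dehydrogenase gene GDH3 (1.38 ± 0.24), among 12 (1 rise and 1 fall on reference genes). Branched-chain genes gave 5 falls and no rise among 12 (3 rises and 1 fall on reference genes). LEU9, a 2-isopropylmalate synthase, and ILV1, threonine deaminase, fell, with changes of -1.08 ± 0.25 and -1.01 ± 0.25, and without 120 h replicate 2 the list gave 3 falls. The sulfur list gave 5 rises and 8 falls among 24 (11 rises and 5 falls on reference genes). MET3 and MET14, for the first steps of sulfate reduction, fell, with changes of -2.71 ± 0.17 (adjusted p = 1.06e-09) and -1.86 ± 0.21, and STR3, a cystathionine lyase, rose by 2.61 ± 0.31 (adjusted p = 1.82e-06). Arginine genes gave 2 rises and 2 falls among 7 (2 rises and 1 fall on reference genes), with CPA1, of carbamoyl phosphate synthetase, at 1.43 ± 0.15 and ARG1, argininosuccinate synthetase, at -1.57 ± 0.30. GCN4, the activator of amino acid synthesis genes, which is controlled mainly in translation, measured 10.98 ± 0.06 (SD, n = 3) at 24 h and 11.30 ± 0.17 at 120 h (adjusted p = 0.194). In the list of aroma alcohols and esters, 4 of 11 rose and 3 fell (6 rises and no fall on reference genes). EHT1 and the reductase gene GRE2 (2.47 ± 0.18, adjusted p = 4.47e-09) rose, and YPR1, which reduces branched aldehydes, fell by 0.97 ± 0.22.

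Genes of nucleotide synthesis mostly fell. Of 16 purine genes 15 fell and none rose, with a median change of -1.62. ADE17, of the last steps to IMP, measured 9.94, 10.57 and 10.45 at 24 h and 8.03, 7.74 and 7.95 at 120 h and fell by 2.41 ± 0.20 (adjusted p = 1.76e-08). ADE1 and ADE2 fell, with changes of -2.44 ± 0.25 and -2.41 ± 0.22, and the IMP dehydrogenase gene IMD2, on a shared probe set, fell by 2.29 ± 0.17. Of 11 pyrimidine genes 6 fell and 2 rose, and URA4, dihydroorotase, fell by 2.16 ± 0.18 (adjusted p = 1.89e-08). Among vitamins, 4 of 5 biotin genes fell (1 rise and 2 falls on reference genes). The changes were -2.28 ± 0.23 for BIO4, -2.10 ± 0.22 for BIO3, -0.92 ± 0.22 for BIO2 and -0.91 ± 0.20 for BIO5, the precursor transporter gene. Thiamine and pyridoxine genes gave 4 rises and 2 falls among 13 (7 rises and 2 falls on reference genes), with THI4, of thiamine synthesis, at 1.30 ± 0.24 and the thiamine-repressed phosphatase gene PHO3 at -2.72 ± 0.29.

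Genes of lipid synthesis mostly rose. Of 24 sterol synthesis genes 18 rose and none fell, with a median change of 0.79. HMG1, the HMG-CoA reductase that controls the pathway, measured 10.78, 10.64 and 10.20 at 24 h and 12.32, 12.13 and 12.32 at 120 h and rose by 1.71 ± 0.26 (adjusted p = 2.91e-05). ERG8 and ERG13, of the mevalonate part, rose by 1.77 ± 0.22 and 1.66 ± 0.21, and ERG11, the lanosterol demethylase, by 0.80 ± 0.15 (adjusted p = 1.85e-04). Of 8 genes of sterol uptake and control 2 rose and 2 fell (5 rises and 1 fall on reference genes), and without 24 h replicate 2 the total was 2. The esterification enzyme gene ARE2 changed by 1.58 ± 0.28 and SUT2, a regulator related to sterol uptake, by -1.16 ± 0.15. All 12 fatty acid genes passed, 9 higher and 3 lower. FAA1, the main acyl-CoA synthetase for imported fatty acids, rose by 3.32 ± 0.37 (adjusted p = 7.78e-07), ACC1, acetyl-CoA carboxylase, by 1.41 ± 0.18 and the desaturase gene OLE1 by 0.89 ± 0.15. The falls were in ELO3, in the elongase gene ELO2 (-2.69 ± 0.21, adjusted p = 1.34e-08) and in the acyl-CoA synthetase gene FAA3 (-0.73 ± 0.20, adjusted p = 0.00563). The remaining elongase gene of the list, ELO1, for shorter chains, rose by 0.73 ± 0.23 (adjusted p = 0.0124), a call lost without replicate 3 of either time.

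Of 20 phospholipid and inositol genes 11 rose and 3 fell (15 rises and no fall on reference genes). After INO1 came the phosphatidylethanolamine methyltransferase genes CHO2 (2.06 ± 0.22, adjusted p = 4.34e-07) and OPI3 (1.93 ± 0.21), and EPT1, of the Kennedy pathway, fell by 1.02 ± 0.23. Peroxisome and fatty acid oxidation gave 14 rises and no fall among 23. CRC1, the mitochondrial acylcarnitine carrier, measured 5.52, 5.59 and 4.94 at 24 h and 8.74, 8.29 and 8.49 at 120 h and rose by 3.16 ± 0.20 (adjusted p = 1.25e-09). The peroxisomal catalase gene CTA1 rose by 2.61 ± 0.23, the reductase gene SPS19, for unsaturated fatty acids, by 2.01 ± 0.18 and the carnitine acetyltransferase gene CAT2 by 1.88 ± 0.21.

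Autophagy genes gave 18 rises and 1 fall among 33 (26 rises and no fall on reference genes), with ATG1, the kinase that starts autophagy, at 3.08 ± 0.31 (adjusted p = 1.97e-07) and the receptors ATG39, for the nuclear envelope, and ATG32, for mitochondria, at 2.86 ± 0.22 and 2.33 ± 0.21. ATG27 fell by 0.52 ± 0.17 (adjusted p = 0.0134), a call lost without 24 h replicate 1. Vacuolar hydrolases and their inhibitors gave 7 rises and no fall among 12 (11 rises and no fall on reference genes), including the alkaline phosphatase gene PHO8 (2.05 ± 0.25), protease B gene PRB1 (1.88 ± 0.20) and its inhibitor PBI2 (1.74 ± 0.18). The vacuolar proton pump gave 10 falls and no rise among 14 (2 rises and 5 falls on reference genes). The changes of VMA13, VMA5 and VMA2 were -1.36 ± 0.20, -1.28 ± 0.19 and -1.12 ± 0.23. Of 33 proteasome subunits 3 fell and 30 did not pass (15 rises and no fall on reference genes). The 15 rises on reference genes were near the share of all genes on that scale. RPN9 fell by 0.41 ± 0.15 (adjusted p = 0.0286), a call lost without 24 h replicate 1 or 2 or 120 h replicate 1 or 2.

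Genes of protein synthesis mostly fell on the deposited scale. Of 137 listed cytosolic ribosomal protein genes 80 were measured. Of these 80, 79 fell and 1 rose, with a median change of -1.55. RPL7A and RPL9A, on probe sets of a shared type like 30 of the 80, fell, with changes of -3.20 ± 0.20 and -3.12 ± 0.28. The exception, RPL15B, measured 9.53, 9.61 and 10.03 at 24 h and 10.90, 10.37 and 10.13 at 120 h and rose by 0.74 ± 0.22 (adjusted p = 0.00798), and it did not pass without 120 h replicate 1. Of 51 small subunit processome genes 39 fell and none rose, such as UTP21 (-2.20 ± 0.26) and the fibrillarin gene NOP1 (-1.95 ± 0.20). Of 63 large subunit assembly factors 46 fell and 1 rose (4 rises and 32 falls on reference genes), and beside RRP1, MRT4 and RIX1 fell, with changes of -2.25 ± 0.23 and -2.03 ± 0.22. RNA polymerases I and III gave 19 falls and 2 rises among 34 (10 rises and 10 falls on reference genes), RPA43 and RPA49 of polymerase I at -1.97 ± 0.29 and -1.78 ± 0.28, and TFC3, of a factor for polymerase III, at 0.74 ± 0.21. Of 12 RNA polymerase II subunits 7 fell and 1 rose. Those that fell included RPB5 (-2.18 ± 0.23) and RPO26 (-2.01 ± 0.19), which belong to all nuclear polymerases. Without 120 h replicate 2, 5 genes passed.

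Of 21 cytosolic tRNA synthetase genes 20 fell and none rose, with a median change of -1.31. TYS1, for tyrosine, measured 7.27, 7.66 and 7.84 at 24 h and 4.77, 4.86 and 5.51 at 120 h and fell by 2.54 ± 0.20 (adjusted p = 1.29e-08). FRS1, for phenylalanine, and GLN4, for glutamine, fell, with changes of -1.88 ± 0.18 and -1.80 ± 0.16. Of 31 translation factor genes 21 fell and 1 rose (3 rises and 15 falls on reference genes). TEF4 and EFB1, subunits of elongation factor eEF1B, fell, with changes of -2.60 ± 0.21 (adjusted p = 1.48e-08) and -1.71 ± 0.20, and HYP2, the eIF5A gene of aerobic cells, rose by 0.65 ± 0.15 (adjusted p = 0.00135).

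Of 275 listed nuclear tRNA genes 91 were measured. Of these 91, 88 fell and none rose, with a median change of -1.89. Whether the probe sets of tRNA genes, and of the small RNA genes below, read the mature RNAs was not tested. Copies of a tRNA share their sequence and 88 of these 91 genes lie on shared probe sets, so they are not separate measurements, and 3 genes were left without the shared types, all of which fell. SUF10, a proline tRNA gene, fell by 3.16 ± 0.23 (adjusted p = 4.47e-09). The list of small nucleolar and nuclear RNA genes, which holds 57 nucleolar and 3 spliceosomal RNAs, gave 27 falls, 4 rises and 29 that did not pass (5 rises and 10 falls on reference genes). The count that passed fell from 31 to 20 without 120 h replicate 1. SNR39 and SNR44 fell, with changes of -1.81 ± 0.18 and -1.80 ± 0.21. SNR39 lies within the gene RPL7A, which also fell. Whether its probe set, or that of SNR44, reads RNA of a surrounding gene was not tested. SNR45, a guide RNA for acetylation of 18S rRNA, measured 6.60, 7.15 and 7.14 at 24 h and 10.16, 10.58 and 11.19 at 120 h and rose by 3.68 ± 0.47 (adjusted p = 3.40e-06), and SNR13, a methylation guide, measured 8.92, 8.92 and 8.99 at 24 h and 10.61, 11.02 and 11.84 at 120 h and rose by 2.21 ± 0.26 (adjusted p = 1.48e-06). Neither overlapped with its 24 h arrays. The other 2 rises were in the spliceosomal RNA genes SNR19, U1 (0.91 ± 0.20), and SNR14, U4 (0.69 ± 0.18), which were chosen after their values were seen.

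Of 24 cyclin and cell cycle genes 14 fell and none rose (2 rises and 10 falls on reference genes). The mitotic cyclin genes CLB1 and CLB2 fell, with changes of -2.73 ± 0.25 (adjusted p = 6.65e-08) and -2.21 ± 0.18, to 3.40 ± 0.05 and 3.79 ± 0.07 (SD, n = 3), near the lower end of the array, and the G1 cyclin genes CLN1 and CLN2 fell too (-2.05 ± 0.19 and -1.94 ± 0.24). CLN3, the upstream G1 cyclin, measured 9.47, 8.98 and 8.39 at 24 h and 7.59, 9.09 and 8.89 at 120 h, and the groups overlapped (adjusted p = 0.301). DNA replication gave 20 falls and 3 rises among 38 (8 rises and 9 falls on reference genes), with the ribonucleotide reductase gene RNR2 at -1.57 ± 0.21, the clamp loader gene RFC1 at -1.54 ± 0.19 and the clamp gene POL30 at -1.39 ± 0.24, against MCM3, of the replicative helicase, at 1.15 ± 0.23. Of 4 measured histone genes 3 fell, among them HTB2 (-1.12 ± 0.22) and the variant HTZ1 (-1.05 ± 0.18).

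Meiosis and sporulation genes gave 9 rises and no fall among 24 (15 rises and no fall on reference genes), but 4 rises and 1 fall without 24 h replicate 3, and 5 rises without 120 h replicate 1. The sporulation septin gene SPR28 rose by 2.65 ± 0.24 (adjusted p = 4.97e-08) to 6.56 ± 0.49, and RIM4, a regulator of meiosis, by 1.90 ± 0.17 to 6.44 ± 0.19 (SD, n = 3). Haploid and mating-type genes gave 6 rises and 1 fall among 18 (12 rises and no fall on reference genes), and 4 that passed without 120 h replicate 1. RME1, a repressor of meiosis, rose by 1.39 ± 0.23, FUS1, of cell fusion in mating, by 1.21 ± 0.19, and the a-factor gene MFA1, on a shared probe set, by 2.68 ± 0.17, while the second a-factor gene, MFA2, fell by 0.62 ± 0.18 (adjusted p = 0.00876).

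At the cell surface, multidrug transporters mostly rose. Of 17 multidrug transporter genes and regulators 14 rose and none fell, with a median change of 1.11. PDR15, an ATP-binding cassette transporter gene induced by stress, measured 6.08, 5.99 and 5.0 at 24 h and 8.48, 8.64 and 9.32 at 120 h and rose by 3.12 ± 0.34 (adjusted p = 6.81e-07). The polyamine exporter genes TPO2 and TPO4 rose by 2.39 ± 0.21 and 2.37 ± 0.18, and the transporter gene YOR1 by 2.04 ± 0.23, those of TPO2 and YOR1 on shared probe sets. Of 31 cell wall genes 12 rose and 9 fell (18 rises and 5 falls on reference genes). GSC2, the glucan synthase subunit of starved cells, rose by 2.83 ± 0.19 (adjusted p = 2.41e-09), and the mannoprotein gene CWP1 fell by 2.16 ± 0.29 (adjusted p = 5.87e-06). Of 24 listed seripauperin genes 10 were measured, all on shared probe sets. None of these 10 passed in limma, and none had an unadjusted p under 0.05, but 2 fell without 120 h replicate 3. Of 10 genes of the plasma membrane proton pump and its neighbours 6 rose and 1 fell (7 rises and no fall on reference genes), including YRO2, a relative of HSP30 (2.30 ± 0.31), and PMP3, a small membrane protein (1.05 ± 0.19). MRH1, another relative of HSP30, fell by 0.79 ± 0.25 (adjusted p = 0.0112), with overlapping groups and a call lost without 24 h replicate 1 or 2 or 120 h replicate 2. N-glycosylation and mannosylation gave 15 falls and no rise among 24 (1 rise and 7 falls on reference genes), among them ALG7, for the first step of the lipid-linked sugar (-1.66 ± 0.20), and DPM1, dolichol phosphate mannose synthase (-1.36 ± 0.16).

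Of 21 phosphate genes 7 rose and 5 fell (10 rises and 3 falls on reference genes), near the share of all genes on both scales. PHM8 and PHO8 rose, while the secreted acid phosphatase gene PHO5 measured 10.29, 10.28 and 10.87 at 24 h and 7.61, 7.70 and 8.11 at 120 h and fell by 2.67 ± 0.21 (adjusted p = 1.32e-08). Iron genes gave 10 rises and no fall among 23 (18 rises and no fall on reference genes), such as the iron permease gene FTR1 (1.50 ± 0.31) and the siderophore transporter gene ARN1 (1.42 ± 0.21), and zinc and copper genes 9 rises and 2 falls among 15 (12 rises and 1 fall on reference genes), such as the copper transporter gene CTR3 (2.19 ± 0.27) and the vacuolar zinc transporter gene COT1 (1.49 ± 0.15). Of 23 genes of Ras, PKA and TOR signalling 10 rose and 3 fell (16 rises and no fall on reference genes), and the number that passed fell from 13 to 7 without 120 h replicate 1. PDE1, a cyclic AMP phosphodiesterase, measured 5.80, 5.85 and 5.42 at 24 h and 8.33, 8.29 and 8.50 at 120 h and rose by 2.68 ± 0.17 (adjusted p = 1.13e-09). GIS1, an activator of stationary-phase genes, and YAK1, a kinase that opposes PKA, rose by 2.17 ± 0.28 and 2.11 ± 0.20, the latter on a shared probe set, and RAS2 fell by 0.67 ± 0.17 (adjusted p = 0.00272).

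In several pairs of related genes one rose and the other fell. These pairs were looked for after the values were seen, so they are a description, and the difference between the 2 genes of a pair was not tested. In the pentose phosphate pathway, where 6 of 13 genes rose and 5 fell (6 rises and 3 falls on reference genes), the lactonase gene SOL3 fell by 2.13 ± 0.16 and SOL4 rose by 2.43 ± 0.27 (adjusted p = 5.49e-09 and 8.08e-07). The transaldolase gene TAL1 fell by 1.13 ± 0.26 and its relative NQM1 rose by 1.18 ± 0.17 (adjusted p = 0.00143 and 1.12e-05). The transketolase genes TKL1 and TKL2 changed by -0.80 ± 0.14 and 0.92 ± 0.20 (adjusted p = 1.22e-04 and 8.41e-04). GND2, the minor 6-phosphogluconate dehydrogenase gene, rose by 1.62 ± 0.19, and RKI1, ribose-5-phosphate isomerase, which has no second gene, fell by 2.17 ± 0.23. Levels of different probe sets cannot be compared, so only changes are set side by side.

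In pyrimidine synthesis URA5 fell by 1.95 ± 0.16 and URA10 rose by 1.96 ± 0.20 (adjusted p = 1.90e-08 and 3.26e-07), both orotate phosphoribosyltransferases, and of the CTP synthase genes URA7 fell by 2.33 ± 0.20 and URA8 rose by 1.46 ± 0.18 (adjusted p = 2.78e-08 and 2.76e-06). Cytosolic SHM2 fell by 2.54 ± 0.18 and mitochondrial SHM1 rose by 1.51 ± 0.17 (adjusted p = 3.52e-09 and 9.52e-07), both serine hydroxymethyltransferases. Of the cytosolic thioredoxin genes TRX1 fell by 1.23 ± 0.20 and TRX2 rose by 0.78 ± 0.16 (adjusted p = 4.09e-05 and 5.45e-04). PIR1 fell by 1.88 ± 0.20 and PIR3 rose by 1.98 ± 0.23 (adjusted p = 3.79e-07 and 1.23e-06), both covalently bound wall proteins. PIR3 measured 9.47, 8.87 and 9.19 at 24 h and 11.09, 10.88 and 11.51 at 120 h, and PIR1 9.80, 9.95 and 9.16 at 24 h and 7.83, 7.56 and 7.88 at 120 h. In each pair named here both genes kept their direction and passed without each of the 6 arrays in turn.

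**Figure D4:**
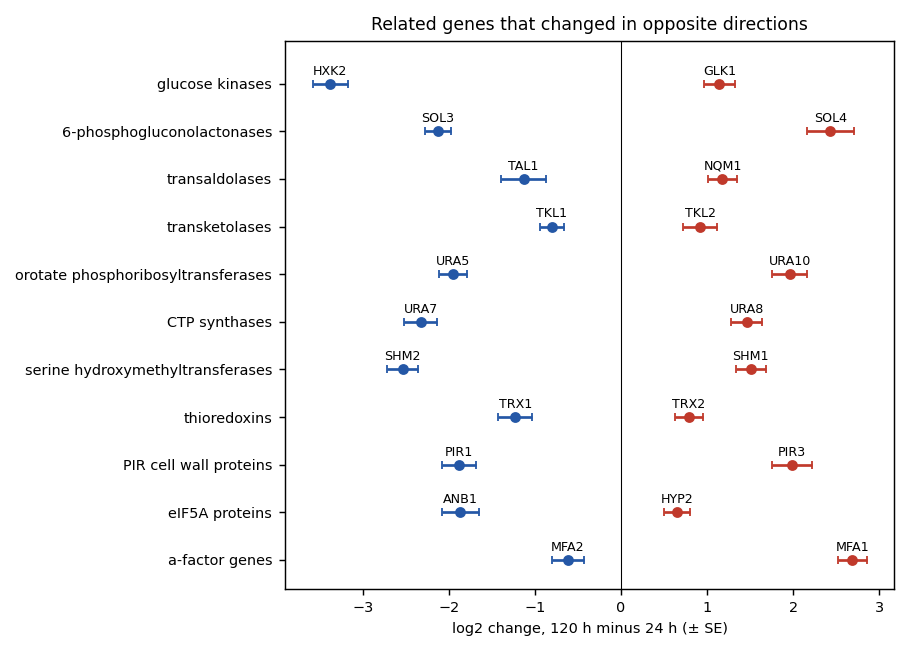
Change from 24 h to 120 h in log2 units, with bars of 1 standard error, for 11 pairs of related genes. Blue points are the gene of each pair that fell and red points the gene that rose, from HXK2 at -3.38 ± 0.20 and GLK1 at 1.14 ± 0.18 to MFA2 at -0.62 ± 0.18 and MFA1 at 2.68 ± 0.17.

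The 120 h arrays were also compared with those of 60 h, when the ferment held about 3.5% ethanol. Between 60 h and 120 h, 540 genes (9.55%) passed, 260 (4.6%) higher and 280 (4.95%) lower at 120 h, and the median size of a change was 0.23, against 0.53 between 24 h and 120 h. The labels give replicate numbers but state no pairing, and deviations of arrays with the same number correlated at 0.33, 0.16 and 0.35 between these times. With the number as a block 794 genes (14%) passed, 362 (6.4%) higher and 432 (7.64%) lower. Adjusted p-values given for 120 h against 60 h are from the fit without the block. On reference genes 544 were higher and 143 lower. Leaving out 1 array gave 312 to 462 genes, the fewest without 60 h replicate 1, and 358 without 60 h replicate 2. This comparison shares the 120 h arrays with the one above, so the values are set side by side. Of the respiratory chain genes none was higher at 120 h than at 60 h and 5 of 35 were lower, of the ribosomal protein genes 37 of 80 were lower, and of the multidrug transporters 6 of 17 were higher. With the block these counts were 1, 5, 48 and 7, and on reference genes 1, 1, 24 and 7. The genes named in the following kept their side of the threshold with the block.

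Some genes that had risen from 24 h were higher again at 120 h than at 60 h. HSP30 measured 7.77 ± 0.25 (SD, n = 3) at 60 h and was higher at 120 h by 1.70 ± 0.24 (adjusted p = 1.79e-04), HPA2 by 1.52 ± 0.33 (adjusted p = 0.00622), CRC1 by 1.40 ± 0.20 (adjusted p = 2.24e-04) and GAT1 by 1.46 ± 0.27 (adjusted p = 0.00211). Of the small nucleolar and nuclear RNA genes 12 of 60 were higher at 120 h than at 60 h and none lower, 19 with the block. The mean over the list was 6.23 at 24 h, 5.25 at 60 h and 5.80 at 120 h. SNR45, whose 60 h arrays were widely spread, measured 6.97 ± 0.31 at 24 h and 6.45 ± 1.51 at 60 h and was higher at 120 h by 4.20 ± 0.47 (adjusted p = 2.92e-05), SNR13 by 2.76 ± 0.26, SNR19 by 1.99 ± 0.20 and SNR14 by 1.51 ± 0.18 (adjusted p = 4.55e-05). CYB2, PUT4 and QCR10 differed between 60 h and 120 h by 0.46 ± 0.44, 0.35 ± 0.34 and 0.18 ± 0.17 (adjusted p = 0.59, 0.584 and 0.587).

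Other genes were lower at 120 h than at 60 h, among them genes that had risen from 24 h. Of the Msn2/Msn4 genes 12 of 41 were lower at 120 h than at 60 h and 2 higher, against 16 and 3 with the block and 8 and 3 on reference genes. HSP12 measured 10.24 ± 0.23 at 60 h and was lower at 120 h, with a difference of -1.71 ± 0.20 (adjusted p = 4.03e-05). The difference of 120 h minus 60 h was -1.81 ± 0.22 for ALD3 (adjusted p = 6.61e-05), -1.30 ± 0.25 for PDC6 (adjusted p = 0.00244), -0.79 ± 0.18 for PGM2, phosphoglucomutase (adjusted p = 0.00949), and -0.85 ± 0.19 for GND2 (adjusted p = 0.00832), which did not pass on reference genes. All 5 biotin genes were lower at 120 h than at 60 h, with BIO3 at -2.01 ± 0.22 (adjusted p = 2.92e-05). HXT1 measured 10.65 ± 0.44 at 60 h, and was lower at 120 h, with a difference of -2.08 ± 0.25 (adjusted p = 6.03e-05). GNP1 and AAC3 differed by -0.19 ± 0.17 and 0.06 ± 0.19 between 60 h and 120 h (adjusted p = 0.56 and 0.896). The plot over all times shows these courses.

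**Figure D5:**
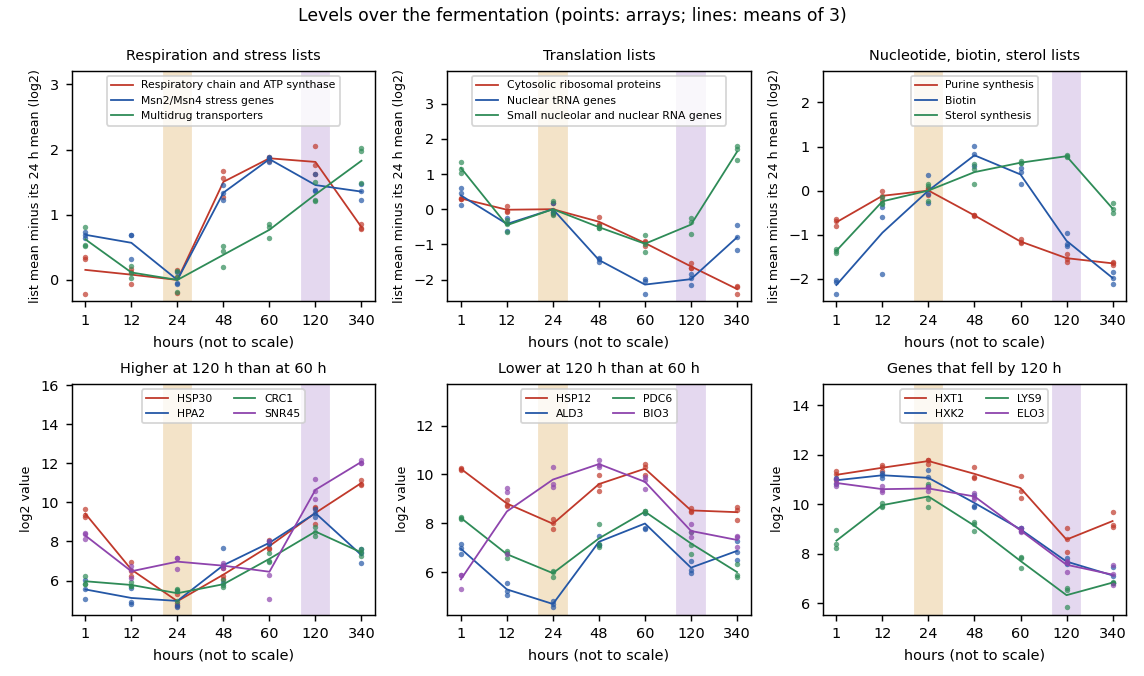
Upper row: mean of the members of 9 gene lists on each array, minus that list's 24 h mean, in log2 units. Lower row: log2 values of 12 genes. Points are arrays, lines the means of 3 arrays, and shaded bands mark 24 h and 120 h, with hours not drawn to scale. HSP30 and SNR45 lie higher at 120 h than at 60 h, while HSP12, ALD3, PDC6 and BIO3 lie lower at 120 h than at 60 h.

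Probe sets without a single named gene were tested in a fit of all probe sets. Of all 9275 non-control probe sets 3656 (39.4%) passed, and of the 2771 with no gene or several genes 587 (21.2%) passed. Of the 2443 with no gene listed, whose median level was 4.24, 466 passed, and of the 328 with several genes, whose median level was 7.50, 121 passed. The part of level in these counts was not tested.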

How the data were processed

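Total RNA was labelled as cRNA and hybridised to Affymetrix yeast arrays. The deposited values are log2 expression values that the authors made with RMA (affy package), per the submitters' processing notes, which give no versions. No genome build is named, so no coordinates are given, and promoter sequence was not analysed here.

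Of 9335 probe sets, 60 controls were set aside. Genes came from the platform annotation: 6504 probe sets had 1 gene, 328 several and 2443 none. All 6504 matched RefSeq names. The probe set with the highest mean over the 21 arrays stood for each of 5656 genes, 284 of them on shared probe set types.

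Limma 3.58.1 (R 4.3.3) fitted group means to the 15 arrays of 24 to 340 h, so that all these times share 1 estimate of the spread. The contrasts 120 h minus 24 h and 120 h minus 60 h were tested with eBayes, and a call needed a Benjamini-Hochberg adjusted p under 0.05. The fit was also run on simulated arrays with independent noise and 200 changed genes. Far more genes passed here, so that run says nothing of these counts. Named genes are the 12 largest rises and 12 largest falls, up to 4 members of each list that passed with the largest changes and at least 1 of the opposite direction, and a set of well-known genes. GAT1, NQM1, PIR1, SNR14, SNR19, STE2, STE3, TAL1, TKL1, TKL2, TRX1, TRX2, URA8, ELO1, FAA3 and the reference genes fell outside that rule and were chosen after their values were seen. The members and the gene lists were chosen with earlier results of these data known. Alternatives were the arrays in the fit, centring on array medians or reference genes (ALG9, TAF10, TFC1, UBC6 and KRE11, now TRS65), a filter on means under 5, averaged probe sets, shared types left out, another variance model, each array left out and a replicate block. Replicate numbers 1, 2 and 3 gave correlations of array deviations of 0.33, 0.16 and 0.35 between 60 h and 120 h, over the limit of 0.1 for pairing, and of 0.13, 0.078 and 0.19 between 24 h and 120 h, which are not all over it. Arrays with unlike numbers gave -0.44 to 0.16 between 60 h and 120 h, and the labels state no pairing.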

Additional observations from a re-analysis of the deposited data

Results flagged for a closer look

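The 4 mouse control probe sets averaged 5.09 (log2) on the array of 24 h replicate 3, above the 3.43 to 4.13 of the other 20 arrays. These probe sets measure no yeast gene, and their signal lies outside the comparisons. The median of the 331 genes with a mean under 4 was 3.32 on that array and 3.36 to 3.59 on the others. The cause was not tested, and without this array 2933 genes passed at 120 h against 24 h.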

How the results depend on the processing

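At 120 h against 24 h the number of genes that passed was 2565 with the 6 arrays alone, 3039 with all 21, 3043 centred on array medians, 2757 of 4738 with means under 5 left out, 2987 with averaged probe sets, 2836 of 5372 without shared types, 3010 with another variance model and 2717 to 2933 without 1 array. On reference genes 2643 genes were higher and 783 lower, a shift that the centring itself gives. With the replicate block 3207 genes passed, 3005 of them also without it, and no call on a named gene changed. At 120 h against 60 h the count was 312 to 462 without 1 array and 794 with the block. Of 238 named genes under all settings, 3550 values in all, 3496 kept direction and side of the threshold, 42 no longer passed, 5 newly passed and 7 turned sign. None of those 7 passed after the turn: on reference genes the change was 0.23 for ADH2, 0.0029 for CLN3 and 0.017 for RPN9, and without 1 array it ranged from -0.068 to 0.084 for ACT1, from -0.30 to 0.019 for ADH2 and from -0.70 to 0.044 for CLN3. TFC3 no longer passed with averaged probe sets (0.24). Leaving out shared types left 3 of 91 tRNA genes and 50 of 80 ribosomal protein genes. With the 6 arrays alone 12 chaperone, 9 phospholipid, 5 RNA polymerase II and 1 proteasome genes passed, and with the block 7 glycerol and 6 proteasome genes. The causes of these moves were not tested. Signals near the lower end of the array, 2.26, limit falls of already low genes.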
